A study of Mus musculus with 9 samples.

Results

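The 37 genes described here take up glucose, break it down to lactate, or store it as glycogen and release it again. They were listed by name. Each was read at the probe set that carried a single gene symbol and had the highest mean over all arrays. Of the 37 genes, 33 had such a probe set, out of 19935 genes on the array that could be read in this way. Gpi1, Pfkfb1 and Eno1 had none, and the 25 probe sets that listed Gapdh listed other genes with it, so these 4 genes are not analysed here. None of the 33 measured genes passed the test across the whole array. Within single hearts, the heart or muscle form was also set against its listed counterpart. In 5 of 12 pairs this contrast was lower in Ezh2-deficient than in wild-type hearts, at an unadjusted exact permutation p below 0.05. These were the glucose transporters, lactate dehydrogenase, both phosphofructokinase pairs, which share Pfkm, and a pair of glycogen-targeting subunits. After adjustment 0 of the 12 passed, and the pairs were chosen with earlier results of these data known.

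Glucose enters the heart muscle cell through transporters of the Slc2a family and is trapped there by hexokinase, which adds a phosphate. Glycolysis then splits it to pyruvate, with phosphofructokinase as its main point of control, and lactate dehydrogenase interconverts pyruvate and lactate. Many of these steps have isozymes, separate genes for the same reaction, of which muscle uses one and other tissues another. The adult heart burns mainly fatty acids, and it keeps glucose and a small glycogen store as further fuels. Glycogen is built by glycogenin, glycogen synthase and the branching enzyme, and is broken down by glycogen phosphorylase, which phosphorylase kinase switches on.

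RNA came from the interventricular septum and right ventricle of adult mice of a mixed C57BL/6 background, hybridised to Affymetrix arrays with 1 array per sample. The 4 Ezh2-deficient hearts carried floxed Ezh2 alleles (Ezh2f/f) and the Mef2cAHF::Cre transgene, and the 5 wild-type hearts carried floxed alleles and no Cre. Ezh2 is the histone H3 methyltransferase of Polycomb repressive complex 2. The transgene expresses Cre from the anterior heart field enhancer of Mef2c, which is active in embryonic progenitors from which much of this tissue derives, so cells of other origins keep the gene. Since the wild-type hearts had no Cre, loss of Ezh2 and presence of Cre cannot be told apart. Their titles name a floxed and a wild-type allele where their genotype field names both alleles as floxed. No treatment, exact age or sex is given in the labels.

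Values are on the log2 scale of the RMA method. They compare hearts for 1 probe set and do not rank genes against each other. Array medians lay between 7.19 and 7.25. The probe set for Ezh2 averaged 8.88 ± 0.11 in Ezh2-deficient and 8.73 ± 0.12 in wild-type hearts (SD, n = 4 and 5), so it did not check the labels. Which exons it covers was not examined. The first 2 principal components held 30.7% and 24.0% of the variance, and they set wild-type hearts 4 and 5 and Ezh2-deficient heart 3 apart from the rest. The sample titles carry a letter of unstated meaning: e for 2 Ezh2-deficient and 2 wild-type hearts, and x for 2 and 3. Within letter x, the titles of Ezh2-deficient heart 2 and wild-type hearts 3 and 5 also carry a prime. Its meaning is not stated either, and it was not used in any fit. Y-linked genes averaged 4.84 to 5.51 in Ezh2-deficient hearts 1 and 3 and wild-type heart 4, and 8.64 to 9.38 in the others. Heart markers were bright in every sample, with Myh6, the main myosin heavy chain of adult mouse heart, at 13.84 to 14.02 in Ezh2-deficient and 13.91 to 14.13 in wild-type hearts. As a mean over 8 genes, markers of skeletal muscle lay at 6.53 to 6.62 in Ezh2-deficient and 6.49 to 6.61 in wild-type hearts, below the array medians.

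Of the 33 genes, 16 had a higher and 17 a lower mean in Ezh2-deficient hearts. The median difference, Ezh2-deficient minus wild type throughout, was -0.0071 on the log2 scale, and that over all 19935 genes was -0.0033. By limma, with Benjamini-Hochberg adjustment over all 28815 probe sets, 0 of the 33 had an adjusted p below 0.05, a threshold that 10 probe sets passed, or 0.0347%. Without adjustment, 2 of the 33 were higher at a limma p below 0.05, where 5.77% of all genes were, and 6 were lower, where 5.78% were. In 2 of the 33, Eno3 and Slc2a4, every Ezh2-deficient heart lay below every wild-type heart, as in 2.19% of all genes. In 0 of the 33 did every Ezh2-deficient heart lie above, as in 2.1% of all genes. The precision is set by the number of hearts, and differences of these genes had a median standard error of 0.0752. The widest 95% interval, that of Pfkfb3, reached 0.438 to either side.

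**Figure D1:**
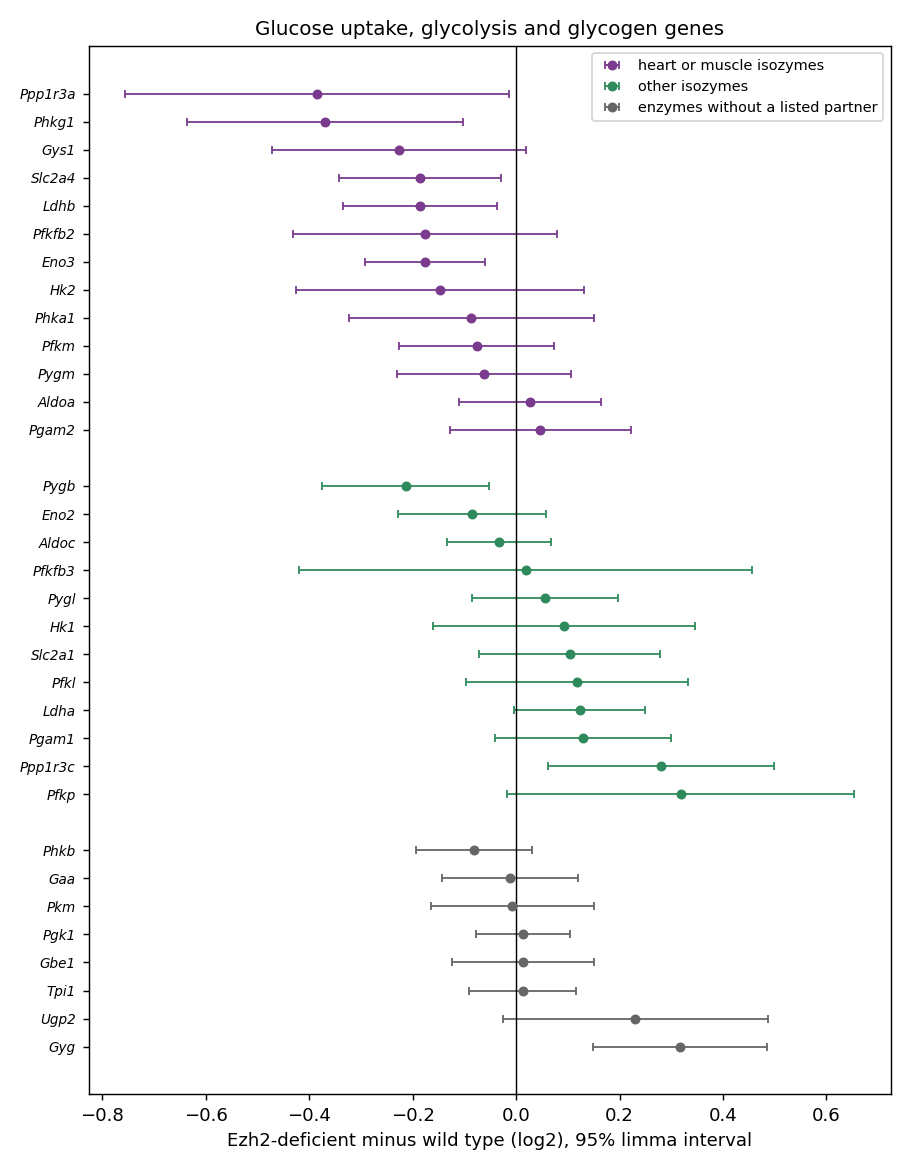
Differences in log2 expression between 4 Ezh2-deficient and 5 wild-type hearts for the 33 measured genes, with 95% limma intervals as bars, in 3 blocks: heart or muscle isozymes, their counterparts in other tissues, and enzymes for which no partner was listed. Of the 13 heart or muscle isozymes 11 lie left of 0, and of the 12 other isozymes 9 lie right of it, while most intervals cross 0.

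Split by isozyme, the genes lay mostly on opposite sides of 0. In bulk tissue, fewer cells of a type and less RNA per cell cannot be told apart. Of the 13 heart or muscle isozymes, 11 had a lower and 2 a higher mean in Ezh2-deficient hearts, with a median difference of -0.18. Of the 12 measured isozymes of other tissues, 9 had a higher and 3 a lower mean, with a median of 0.10. The 8 measured enzymes without a listed partner divided into 5 with a higher and 3 with a lower mean, with a median of 0.01. The first of these counts rests partly on Ezh2-deficient heart 3, which was the lowest of all 9 arrays for 10 of the 13 heart or muscle isozymes. Without it 8 of the 13 had a lower mean, with a median of -0.03, while 7 of the 12 others had a higher one, with a median of 0.12.

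Among the genes of glucose uptake and phosphorylation, the means of the transporter pair differed in opposite directions. Slc2a4 (GLUT4), the transporter that insulin brings to the surface of muscle and fat cells, measured 11.04, 11.04, 10.77 and 11.06 in Ezh2-deficient hearts 1 to 4, against 11.11, 11.28, 11.20, 11.07 and 11.16 in wild-type hearts 1 to 5. All Ezh2-deficient hearts lay below all wild-type hearts, with 11.06 as the highest Ezh2-deficient and 11.07 as the lowest wild-type value. The difference was -0.19 (SE 0.0703) with a limma adjusted p of 0.386, and it was -0.12 without Ezh2-deficient heart 3. Slc2a1 (GLUT1), the basal transporter found in most tissues, measured 9.03, 8.89, 8.62 and 8.76 in Ezh2-deficient hearts 1 to 4, against 8.76, 8.76, 8.71, 8.76 and 8.60 in wild-type hearts 1 to 5. The groups overlapped, and 4 of the 9 hearts shared the value 8.76. Its difference was 0.10 (SE 0.0785, limma adjusted p 0.665).

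Hk2, the main hexokinase of muscle, averaged 11.16 ± 0.31 in Ezh2-deficient and 11.31 ± 0.08 in wild-type hearts, a difference of -0.15 (SE 0.1247). Ezh2-deficient heart 3 stood at 10.69 and the other Ezh2-deficient hearts at 11.28 to 11.36, and without it the difference was 0.01. Hk1, the hexokinase of most tissues, averaged 13.01 ± 0.22 in Ezh2-deficient and 12.91 ± 0.17 in wild-type hearts at the probe set chosen by its mean. That probe set is annotated with 1 GenBank mRNA, which is also listed for 16 probe sets shared by Hk1 and Rpl17, a ribosomal protein gene, so its signal may not be that of Hk1. The other Hk1 probe set, annotated with a RefSeq transcript, averaged 10.42 ± 0.16 in Ezh2-deficient and 10.20 ± 0.22 in wild-type hearts, a difference of 0.22 (SE 0.116, limma adjusted p 0.547).

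In upper glycolysis, from fructose 6-phosphate to the triose phosphates, the means of the 3 phosphofructokinase subunits differed in size and direction. Pfkp, the platelet-type subunit, measured 10.69, 10.52, 9.90 and 10.36 in Ezh2-deficient hearts 1 to 4, against 10.20, 10.14, 10.17, 9.82 and 9.91 in wild-type hearts 1 to 5. The 3 highest values were all from Ezh2-deficient hearts, and Ezh2-deficient heart 3 was the second lowest of the 9. The difference was 0.32 (SE 0.1501, limma adjusted p 0.486), and it was 0.47 without that heart. Pfkl, the liver-type subunit, measured 10.26, 10.17, 9.85 and 10.22 in Ezh2-deficient hearts 1 to 4, against 10.12, 10.13, 10.05, 9.85 and 9.87 in wild-type hearts 1 to 5. Pfkm, the muscle-type subunit, measured 13.10, 13.12, 12.87 and 13.16 in Ezh2-deficient hearts 1 to 4, against 13.13, 13.22, 13.20, 13.04 and 13.08 in wild-type hearts 1 to 5. Both overlapped between the groups, and Pfkl differed by 0.12 (SE 0.0962) and Pfkm by -0.08 (SE 0.0672).

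The other genes of upper glycolysis had intervals that included 0. Pfkfb2 and Pfkfb3 make and remove fructose 2,6-bisphosphate, the activator of phosphofructokinase, and Pfkfb2 is the heart form. Pfkfb2 averaged 10.35 ± 0.29 in Ezh2-deficient and 10.52 ± 0.06 in wild-type hearts, a difference of -0.18 that shrank to -0.03 without Ezh2-deficient heart 3. Pfkfb3 averaged 7.94 ± 0.23 in Ezh2-deficient and 7.92 ± 0.41 in wild-type hearts, with a 95% interval of -0.42 to 0.46. The muscle aldolase Aldoa differed by 0.03 (95% interval -0.11 to 0.16), the brain aldolase Aldoc, which was dim in all hearts, by -0.03 (-0.13 to 0.07) and the triose phosphate isomerase Tpi1 by 0.01 (-0.09 to 0.12).

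In lower glycolysis, Eno3 and the lactate dehydrogenases had the smallest p-values. Eno3, the muscle enolase subunit, measured 13.05, 13.01, 12.94 and 13.14 in Ezh2-deficient hearts 1 to 4, against 13.26, 13.22, 13.29, 13.14 and 13.16 in wild-type hearts 1 to 5. No value of one group reached into the other, although the gap, between 13.139 and 13.145, was narrow. The difference was -0.18 (SE 0.0518, limma adjusted p 0.278), or -0.15 without Ezh2-deficient heart 3. Eno2, the neuronal subunit, was dim in all hearts and averaged 6.23 ± 0.14 in Ezh2-deficient and 6.31 ± 0.03 in wild-type hearts. Ldhb encodes the heart subunit of lactate dehydrogenase and Ldha the subunit that prevails in skeletal muscle, so Ldhb was taken as the heart isozyme and Ldha as its counterpart.

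Ldhb measured 11.99, 12.07, 11.89 and 12.10 in Ezh2-deficient hearts 1 to 4, against 12.02, 12.19, 12.28, 12.23 and 12.29 in wild-type hearts 1 to 5. Ezh2-deficient hearts 2 and 4 lay above the lowest wild-type heart and below the other 4, and the difference was -0.19 (SE 0.0664, limma adjusted p 0.364). It was -0.06 between hearts of title letter e and -0.28 between those of letter x. A further Ldhb probe set gave -0.21 (SE 0.055, limma adjusted p 0.224), with no overlap between the groups. Ldha measured 12.97, 12.94, 12.76 and 12.96 in Ezh2-deficient hearts 1 to 4, against 12.85, 12.85, 12.80, 12.71 and 12.72 in wild-type hearts 1 to 5. All Ezh2-deficient hearts but heart 3 lay above every wild-type heart, and the difference was 0.12 (SE 0.0570, limma adjusted p 0.48).

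The other genes of lower glycolysis had intervals that included 0. Pgam1, the phosphoglycerate mutase of most tissues, differed by 0.13 (95% interval -0.04 to 0.30), and Pgam2, the muscle form, by 0.05 (-0.13 to 0.22). Pgk1, phosphoglycerate kinase, differed by 0.01 (-0.08 to 0.10) and Pkm, pyruvate kinase, by -0.01 (-0.17 to 0.15). A further Pkm probe set also gave -0.01 (-0.15 to 0.14). Which of the spliced forms PKM1 and PKM2 these probe sets read was not examined.

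The promoters of the lactate dehydrogenase pair are shown because this is one of the 2 isozyme pairs whose contrast did not overlap between the groups. They come from RefSeq on GRCm38.p6 and run 5′ to 3′ on the gene's strand, from 250 bases before to 50 bases after the start. Ldhb lies at chr6:142507908-142508207 on the minus strand and Ldha at chr7:46845554-46845853 on the plus strand. Capitals in Ldhb mark CTA, any 4 bases and TAG, called the MEF2 pattern here, which reads the same on both strands. This pattern fixes only the outer bases of a MEF2 site and leaves the middle 4 free, so a match need not be a MEF2 site. Capitals in Ldha mark ACGTG, the core of the hypoxia response element, on either strand. ACGTG also lies inside the E-box CACGTG.
Ldhb: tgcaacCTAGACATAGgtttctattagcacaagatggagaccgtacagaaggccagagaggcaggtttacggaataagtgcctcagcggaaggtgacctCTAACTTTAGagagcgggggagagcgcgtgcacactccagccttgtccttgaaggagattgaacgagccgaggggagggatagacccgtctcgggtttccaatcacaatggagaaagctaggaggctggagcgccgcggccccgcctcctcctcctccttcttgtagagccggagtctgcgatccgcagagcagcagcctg
Ldha: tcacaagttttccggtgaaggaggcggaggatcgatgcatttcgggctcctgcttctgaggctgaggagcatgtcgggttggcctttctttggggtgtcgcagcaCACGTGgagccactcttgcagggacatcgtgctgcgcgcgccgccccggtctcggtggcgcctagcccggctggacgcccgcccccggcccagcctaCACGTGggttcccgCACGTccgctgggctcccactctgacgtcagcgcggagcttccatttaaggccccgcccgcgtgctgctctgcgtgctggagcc

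The Ldhb promoter held 2 matches to the MEF2 pattern and no ACGTG. The Ldha promoter shown held 5 matches to ACGTG, counting both strands, of which 4 belong to 2 E-boxes, and no match to the MEF2 pattern. RefSeq lists 2 promoters for Ldha, and this one was shown because it held more of the marked motif. The other, at chr7:46846832-46847131, held 0 matches to any of the 3 motifs. Over the 45 promoters listed for 32 of the 33 measured genes, 51.1% held ACGTG, against 19.6% of all 32851 promoters. All promoters are a background that is not matched for base content. The share was 8 of 19, or 42.1%, for 12 of the 13 heart or muscle isozymes and 10 of 16, or 62.5%, for the others. Whether these shares differ was not tested. CACGTG was in 15.6% of the promoters of these genes, against 7.15% of all. The MEF2 pattern was in 3 of 19 promoters of heart or muscle isozymes, or 15.8%, in 0 of 16 of the others and in 3.69% of all promoters. Genes with several promoters count more than once, and these matches describe letters only. The genes and motifs were chosen with earlier results of these data known.

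Glycogen synthesis held the gene with the smallest p of the list and the widest contrast between related genes. Gyg, glycogenin, which primes each glycogen particle, measured 10.67, 10.59, 10.31 and 10.49 in Ezh2-deficient hearts 1 to 4, against 10.16, 10.11, 10.18, 10.33 and 10.23 in wild-type hearts 1 to 5. Ezh2-deficient hearts 1, 2 and 4 lay above all wild-type hearts, and heart 3 lay just below the highest wild-type value, 10.33. The difference was 0.32 (SE 0.0754), a level 1.25 times that of wild type, with a limma adjusted p of 0.192. It was 0.45 between hearts of title letter e and 0.21 between those of letter x. Ugp2, which makes the UDP-glucose that glycogen is built from, measured 10.85, 10.66, 10.49 and 10.48 in Ezh2-deficient hearts 1 to 4, against 10.27, 10.14, 10.36, 10.68 and 10.49 in wild-type hearts 1 to 5. The groups overlapped, and the difference was 0.23 (SE 0.1146, limma adjusted p 0.513). Between hearts of title letter e it was 0.46, and between those of letter x it was 0.06.

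Gys1, the muscle glycogen synthase, measured 10.04, 9.96, 9.65 and 10.09 in Ezh2-deficient hearts 1 to 4, against 10.28, 10.39, 10.13, 9.93 and 10.09 in wild-type hearts 1 to 5. Its groups overlapped too, with a difference of -0.23 (SE 0.1102, limma adjusted p 0.502), which was -0.13 without Ezh2-deficient heart 3. Gbe1, the branching enzyme, differed by 0.01 (95% interval -0.12 to 0.15).

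Ppp1r3a and Ppp1r3c encode subunits that bring protein phosphatase 1 to glycogen, where it activates the synthase. Ppp1r3a is the striated muscle form and Ppp1r3c is found in many tissues. Ppp1r3c measured 10.68, 10.62, 10.17 and 10.50 in Ezh2-deficient hearts 1 to 4, against 10.35, 10.26, 10.19, 10.13 and 10.14 in wild-type hearts 1 to 5, a difference of 0.28 (SE 0.0979, limma adjusted p 0.353). Ezh2-deficient hearts 1, 2 and 4 lay above all wild-type hearts, and heart 3 lay among the lower wild-type values. Ppp1r3a measured 10.56, 10.56, 10.38 and 10.49 in Ezh2-deficient hearts 1 to 4, against 10.47, 10.61, 10.78, 11.28 and 11.27 in wild-type hearts 1 to 5, a difference of -0.38 (SE 0.1664, limma adjusted p 0.45). Wild-type hearts 4 and 5, the arrays that stood apart, were the 2 highest by far. Without them the difference was -0.12. It was -0.02 between hearts of title letter e, to which neither belongs, and -0.64 between those of letter x.

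The promoters of these 2 genes are shown for the same comparison of motifs, although their contrast overlapped between the groups. Those of Slc2a4 and Slc2a1, whose contrast did not overlap, are not shown. Ppp1r3a lies at chr6:14755225-14755524 and Ppp1r3c at chr19:36736555-36736854, both on the minus strand of GRCm38.p6. Capitals mark the MEF2 pattern in Ppp1r3a and ACGTG on either strand in Ppp1r3c.
Ppp1r3a: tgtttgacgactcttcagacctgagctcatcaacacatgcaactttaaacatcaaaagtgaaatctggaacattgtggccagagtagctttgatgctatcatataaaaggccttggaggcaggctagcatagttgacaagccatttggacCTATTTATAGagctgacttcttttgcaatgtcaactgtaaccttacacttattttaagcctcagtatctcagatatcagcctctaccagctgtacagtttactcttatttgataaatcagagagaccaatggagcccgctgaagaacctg
Ppp1r3c: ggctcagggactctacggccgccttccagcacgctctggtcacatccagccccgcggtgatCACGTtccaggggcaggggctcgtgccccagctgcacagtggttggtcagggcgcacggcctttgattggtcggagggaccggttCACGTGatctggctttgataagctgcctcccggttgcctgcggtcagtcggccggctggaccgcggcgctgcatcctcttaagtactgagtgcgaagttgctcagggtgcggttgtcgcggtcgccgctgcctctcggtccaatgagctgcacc

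The Ppp1r3a promoter held 1 match to the MEF2 pattern and no ACGTG. The Ppp1r3c promoter held 3 matches to ACGTG, 2 of them in 1 E-box, and no match to the MEF2 pattern. Only 3 of the 19 promoters of heart or muscle isozymes held the MEF2 pattern. Those shown for Ldhb and Ppp1r3a are both among them, so the promoters shown do not stand for the list.

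Of the 7 genes of glycogen breakdown, 6 had a lower and 1 a higher mean in Ezh2-deficient hearts, with a median difference of -0.08. Phkg1, the catalytic subunit of phosphorylase kinase in muscle, measured 7.66, 8.30, 7.82 and 8.01 in Ezh2-deficient hearts 1 to 4, against 8.46, 8.23, 8.45, 8.26 and 8.20 in wild-type hearts 1 to 5. Ezh2-deficient heart 2, at 8.30, lay among the wild-type values and the other 3 below all of them. The difference was -0.37 (SE 0.1194, limma adjusted p 0.316), or -0.51 within title letter e and -0.24 within letter x. Pygb, the brain form of glycogen phosphorylase, which the heart also makes, measured 12.10, 12.32, 12.10 and 12.22 in Ezh2-deficient hearts 1 to 4, against 12.30, 12.45, 12.58, 12.36 and 12.30 in wild-type hearts 1 to 5. Only Ezh2-deficient heart 2 reached the wild-type range, and the difference was -0.21 (SE 0.0726, limma adjusted p 0.342).

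The muscle phosphorylase Pygm differed by -0.06 (95% interval -0.23 to 0.11) and the liver form Pygl by 0.06 (-0.08 to 0.20). Phka1, the muscle regulatory alpha subunit of phosphorylase kinase, differed by -0.09 (-0.32 to 0.15) and Phkb, its beta subunit, by -0.08 (-0.19 to 0.03). Gaa, which digests glycogen in lysosomes, differed by -0.01 (-0.14 to 0.12). Each of these 5 intervals includes 0.

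**Figure D2:**
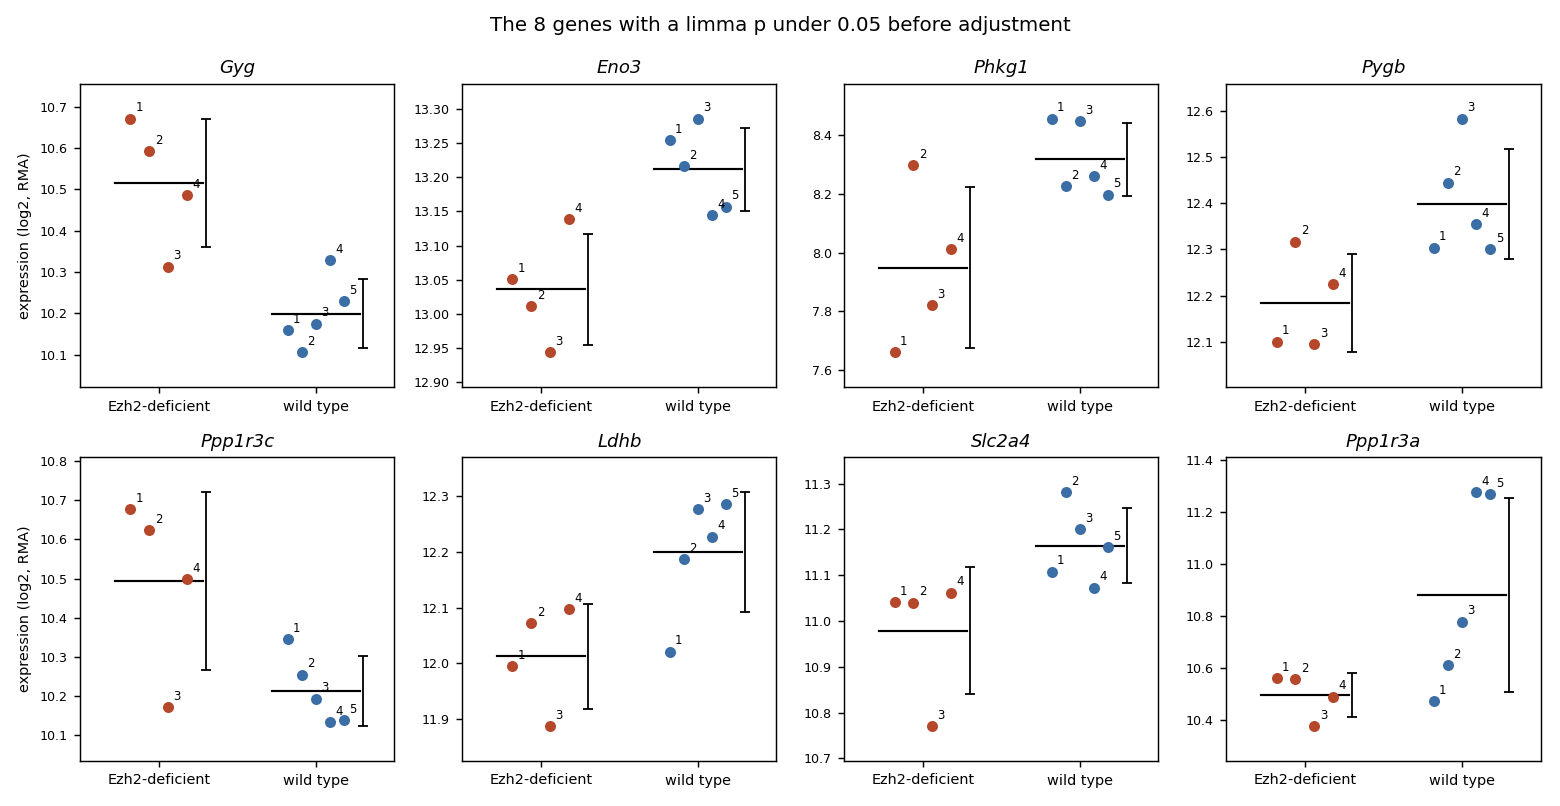
Log2 expression of the 8 genes with an unadjusted limma p below 0.05 in each heart, numbered by array, with the group mean as a line and the SD as a bar, Ezh2-deficient (n = 4) left of wild type (n = 5). Eno3 and Slc2a4 show no overlap between the groups, and Ezh2-deficient heart 3 is the lowest of its group in every panel but that of Phkg1.

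The isozymes were then set against each other inside each heart, as the heart or muscle form minus its counterpart, so that anything which moves both probe sets alike in a heart cancels. The level of such a contrast depends on the probes and only its difference between genotypes was read. Of the 13 pairs listed 12 were measured, all but the Eno3 and Eno1 pair. In 10 pairs the contrast was lower and in 2 higher in Ezh2-deficient hearts, with a median difference of -0.19. In 2 of the pairs the counterpart, Eno2 or Aldoc, was dimmer than the median of every array and was not shown to be above background. Without these, 9 of 10 pairs had a lower contrast, with a median of -0.22. In an exact permutation test, two-sided and over every possible assignment of the hearts to the groups, 5 of the 12 pairs had a p below 0.05, and 0 had one after Benjamini-Hochberg adjustment over the 12, with 0.0635 as the smallest adjusted value. The smallest p this design allows is 0.00794. How large a share of other gene pairs would pass was not computed, so these counts have no background beside them. Several pairs share a gene, as both phosphofructokinase pairs share Pfkm. The direction of most pairs follows from the values given for their members. The pairs were chosen with earlier results of these data known.

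The lactate dehydrogenase contrast, Ldhb minus Ldha, was -0.98, -0.87, -0.88 and -0.86 in Ezh2-deficient hearts 1 to 4, against -0.83, -0.66, -0.53, -0.48 and -0.44 in wild-type hearts 1 to 5. All Ezh2-deficient hearts lay below all wild-type hearts, and the difference was -0.31 (SE 0.0841, exact permutation p 0.0159, adjusted 0.0635). The transporter contrast, Slc2a4 minus Slc2a1, was 2.02, 2.15, 2.15 and 2.30 in Ezh2-deficient hearts 1 to 4, against 2.35, 2.52, 2.49, 2.31 and 2.56 in wild-type hearts 1 to 5. Here too the groups did not overlap, with a difference of -0.29 (SE 0.0757, exact permutation p 0.0159, adjusted 0.0635). Among hearts of title letter e the lactate dehydrogenase difference was -0.18 and the transporter difference -0.27, and among those of letter x they were -0.39 and -0.30.

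The phosphofructokinase contrast of Pfkm and Pfkp was 2.40, 2.60, 2.97 and 2.80 in Ezh2-deficient hearts 1 to 4, against 2.93, 3.08, 3.03, 3.23 and 3.18 in wild-type hearts 1 to 5. Ezh2-deficient heart 3 alone reached the wild-type range, and the difference was -0.39 (SE 0.1229, exact permutation p 0.0159, adjusted 0.0635). That of Pfkm and Pfkl was 2.84, 2.95, 3.02 and 2.94 in Ezh2-deficient hearts 1 to 4, against 3.01, 3.09, 3.15, 3.20 and 3.21 in wild-type hearts 1 to 5. Again only Ezh2-deficient heart 3 reached the wild-type range, with a difference of -0.19 (SE 0.0527, exact permutation p 0.0238, adjusted 0.0714). The contrast of Ppp1r3a and Ppp1r3c differed by -0.66 (SE 0.2405, exact permutation p 0.0397, adjusted 0.0952), and by -0.35 without wild-type hearts 4 and 5. It was -0.30 among hearts of title letter e and -0.88 among those of letter x. Within letters e and x, Pfkm with Pfkp gave -0.40 and -0.36, and Pfkm with Pfkl -0.16 and -0.20.

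Pygm and Pygb ran the other way, with a contrast 0.15 higher in Ezh2-deficient hearts (SE 0.0750, exact permutation p 0.0952). The other 6 pairs had exact permutation p values of 0.206 to 0.476. Among them was the contrast of Hk2 and Hk1 at -0.24 (SE 0.2597), which was 0.02 without Ezh2-deficient heart 3. With the Hk1 probe set annotated with a RefSeq transcript, a choice made after the values were seen, it was -0.36 with an exact permutation p of 0.0159, and 4 of the 12 pairs then had an adjusted p below 0.05. Without Ezh2-deficient heart 3 the lactate dehydrogenase difference was -0.32, that of the transporters -0.29, and those of Pfkm with Pfkp and Pfkl -0.49 and -0.22. Without wild-type hearts 4 and 5 the exact permutation test has 35 assignments, and its smallest p is 0.0286. The lactate dehydrogenase pair reached it with a difference of -0.22. The transporter difference was then -0.30 (exact permutation p 0.0571), that of Pfkm with Pfkp -0.32 (0.114) and that of Pfkm with Pfkl -0.15 (0.0857).

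**Figure D3:**
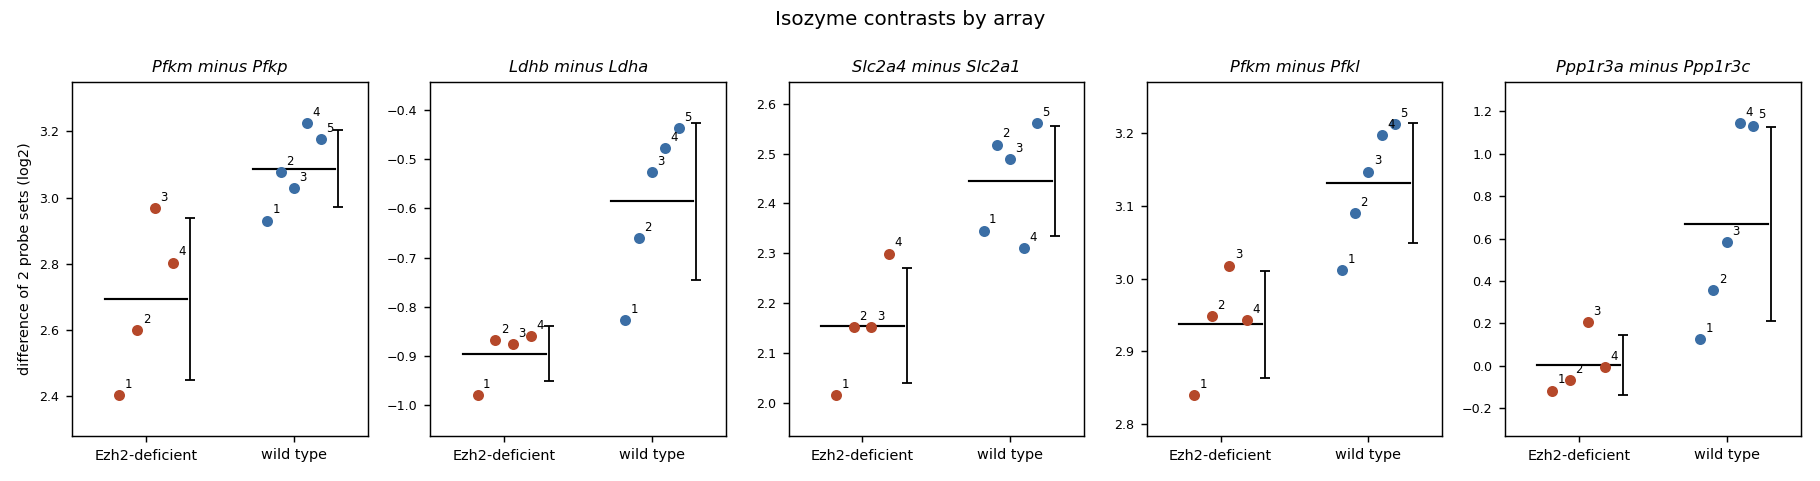
Heart or muscle isozyme minus its counterpart within each heart, on the log2 scale, for isozyme pairs, with Ezh2-deficient hearts (n = 4) left of wild-type hearts (n = 5), group means as lines and SDs as bars. For Ldhb with Ldha and for Slc2a4 with Slc2a1 every Ezh2-deficient heart lies below every wild-type heart.

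Most markers of other heart cell types had a higher mean in Ezh2-deficient hearts, and 0 of them passed the adjusted threshold in limma. The 8 markers of heart muscle cells had a mean of 13.66 to 13.80 in Ezh2-deficient and 13.79 to 13.86 in wild-type hearts, with 7 of 8 lower and a median difference of -0.07. All 9 fibroblast markers had a higher mean, with a median difference of 0.57 and a mean over the list of 10.90 to 11.24 in Ezh2-deficient and 10.18 to 10.82 in wild-type hearts. All 8 endothelial, all 7 smooth muscle or pericyte and all 8 macrophage markers had a higher mean as well, with median differences of 0.22, 0.18 and 0.21. These directions did not all hold within a title letter. Macrophage markers differed by -0.08 to 0.06 within letter e and by 0.27 to 0.55 within x. For endothelial markers the ranges were -0.05 to 0.46 and 0.11 to 1.05, and for fibroblast markers -0.015 to 0.62 and 0.16 to 1.12. Those of smooth muscle or pericyte markers were 0.04 to 0.56 and -0.16 to 0.50. A higher mean was also found for all 4 measured erythrocyte, 4 of 5 adipocyte and 2 of 3 Schwann or neural markers. Of the 6 neutrophil markers, 2 had a higher and 4 a lower mean. The part of any of these cell types in the contrasts was not tested.

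**Figure D4:**
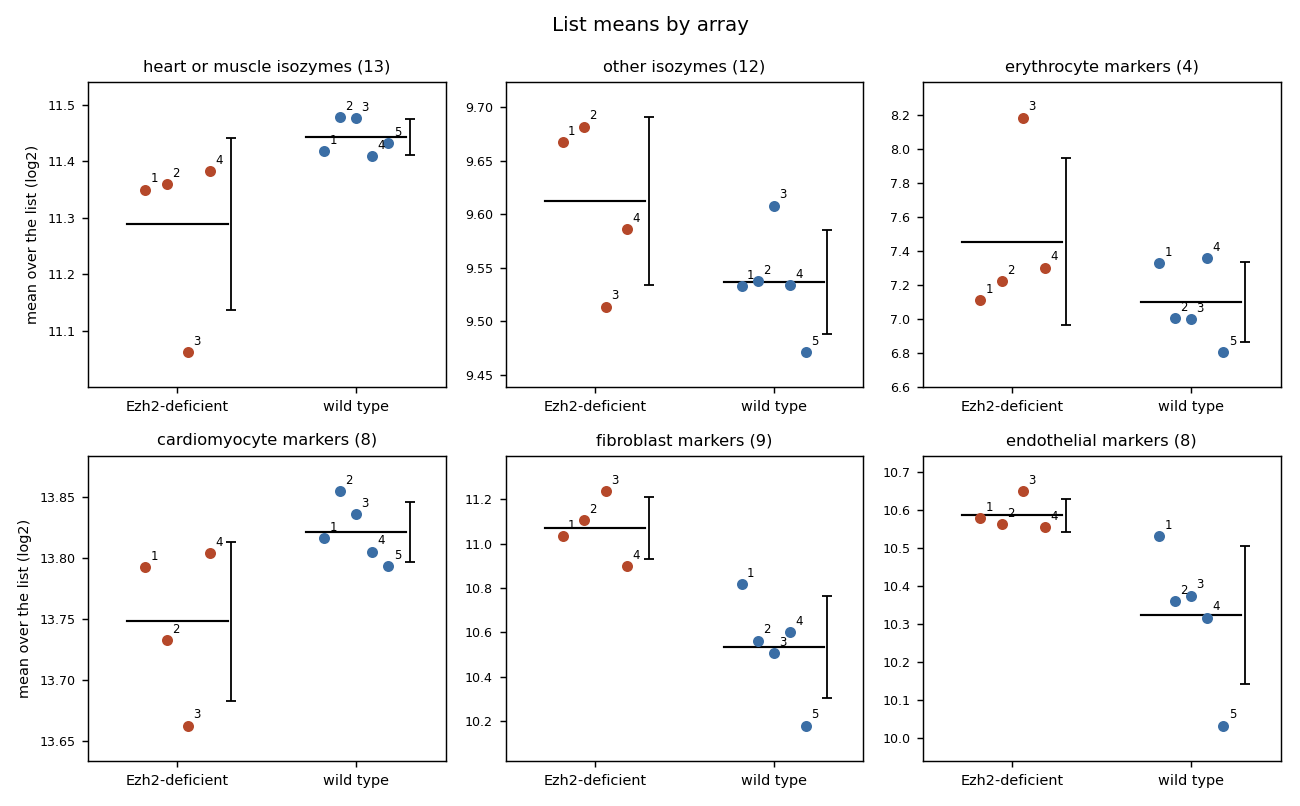
Mean log2 expression over each gene list in each heart, with Ezh2-deficient hearts (n = 4) left of wild-type hearts (n = 5), group means as lines and SDs as bars. The heart or muscle isozymes lie at 11.06 to 11.38 in Ezh2-deficient hearts, below the 11.41 to 11.48 of wild-type hearts, and fibroblast markers lie higher in Ezh2-deficient hearts. The gap for the isozymes, between 11.383 and 11.409, is narrow. How often other gene lists separate in this way was not computed.

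Ezh2-deficient heart 3 also had the highest mean of the erythrocyte markers, of which 4 of 9 were measured, at 8.19, where the other Ezh2-deficient hearts had 7.11 to 7.30 and the wild-type hearts 6.81 to 7.36. It was the lowest array for 14 of the 33 genes. The part of blood cells in its values was not tested.

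Beyond the list, 33 of 36 further enzymes of glucose and glycogen metabolism were measured, 18 with a higher and 15 with a lower mean, and 0 passed the adjusted threshold in limma. At an unadjusted limma p below 0.05, 1 was higher and 4 were lower, where 5.77% and 5.78% of all genes were. The largest of these differences was in Fbp2, the muscle fructose bisphosphatase, which measured 8.74, 9.05, 9.23 and 9.41 in Ezh2-deficient hearts 1 to 4, against 9.26, 9.98, 9.82, 9.81 and 10.12 in wild-type hearts 1 to 5. Only Ezh2-deficient heart 4 reached the wild-type range, where it lay above the lowest heart, and the difference was -0.69 (SE 0.1790, limma adjusted p 0.222). Pgm1, the phosphoglucomutase that links glycogen to glycolysis, averaged 11.55 ± 0.10 in Ezh2-deficient and 11.70 ± 0.08 in wild-type hearts. Ppp1r3d, another glycogen-targeting subunit, differed by -0.18, and Phka2, the liver form of the kinase's alpha subunit, by -0.18.

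Among 28 regulators of the pathway, 13 had a higher and 15 a lower mean, and 0 passed in limma. Unadjusted, 3 were higher and 4 lower at a limma p below 0.05, beside the same 5.77% and 5.78% of all genes. Pdk3 and Pdk4 are kinases that switch off pyruvate dehydrogenase and so keep pyruvate from oxidation. Pdk3 measured 7.43, 7.34, 7.27 and 7.40 in Ezh2-deficient hearts 1 to 4, against 7.18, 6.85, 6.72, 7.20 and 6.89 in wild-type hearts 1 to 5. Every Ezh2-deficient heart lay above every wild-type heart, with a difference of 0.39 (SE 0.1002, limma adjusted p 0.215). Pdk4 measured 12.03, 11.71, 11.79 and 12.29 in Ezh2-deficient hearts 1 to 4, against 12.68, 12.65, 12.13, 12.06 and 12.52 in wild-type hearts 1 to 5, with overlap between the groups and a difference of -0.45 (SE 0.1614, limma adjusted p 0.364). Of the beta subunits of AMP-activated kinase, which bind glycogen, Prkab1 differed by -0.17 (limma adjusted p 0.277) with no overlap between the groups, and Prkab2 by 0.28 (limma adjusted p 0.338).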

How the data were processed

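Expression was measured on 9 arrays. The deposited log2 values hold 1 value per probe set and array. Per the submitters' processing notes, the authors used Affymetrix Power Tools and RMA, in versions that the sources used here do not give. The log2 scale was read from the values, 2.18 to 15.0, and the name of the method.

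Groups came from the labels, which speak of 4 and 5 mice. Replicate numbers follow accession order and pair nothing. Gene symbols came from the platform annotation: 21780 of 28815 had 1 symbol, 1605 several and 5430 none, and 21689 of the first had a gene identifier in the reference table. A gene was read at its single-symbol probe set with the highest mean.

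The test was limma (R 4.3.3, limma 3.58.1) with no term but genotype, two-sided and Benjamini-Hochberg adjusted over all probe sets at 0.05. Isozyme contrasts used exact permutation over all assignments of the hearts. Values in every heart are given for the 12 genes of smallest p and for the pairs of smallest exact p. The limma p-values set a difference against the spread between these hearts, moderated over all probe sets. The exact p-values rank a difference among the assignments. The fit was tested on simulated data. Members, lists, pairs and motifs were chosen with earlier results of these data known.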

Additional observations from a re-analysis of the deposited data

Results flagged for a closer look

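In 66 groups of values, each gene in each genotype, 9 held a heart far from the rest by Dixon's criterion. Chance gives about 1 in 20 for independent groups. These genes were read on the same arrays, so their flags are not independent and the rate is no test of the count. Ezh2-deficient heart 3 accounted for 6 of the 9. It read 10.771 for Slc2a4, where the other Ezh2-deficient hearts read 11.040 to 11.062, and 13.332 for Hk1, where they read 12.874 to 12.932. It read 10.693 for Hk2, against 11.282 to 11.358 in the others, and 9.919 for Pfkfb2, against 10.468 to 10.521. It read 12.335 for Pkm, against 12.555 to 12.594, and 12.763 for Ldha, against 12.939 to 12.974. The remaining 3 were single hearts. Ezh2-deficient heart 4 read 6.409 for Aldoc, wild-type heart 1 read 12.532 for Pgk1, and wild-type heart 5 read 6.359 for Eno2, for which the other wild-type hearts all read 6.301.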

How the results depend on the processing

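No gene of the list passed the adjusted threshold in any of 22 alternative fits. The lowest limma adjusted p was 0.0508, for Gyg with array weights. Of 724 recomputed differences 44 changed sign, in 15 genes, and 10 of these lay within a title letter. The largest difference to do so was 0.147 in size, that of Hk2. The number of probe sets called on the whole array, 10, became 17 after centring on array medians, without dim probe sets or with the title letter as a block, 37 with array weights, 19 with the mean of a gene's probe sets and 3 with the Y-linked mean as a covariate. It was 5 without wild-type hearts 4 and 5, 6 without these and Ezh2-deficient heart 3, and 0 within title letter e or x. Leaving out 1 heart at a time gave 3 to 15. Genes of the list higher at an unadjusted p below 0.05, 2 in all hearts, were 6 with array weights, 4 with the Y-linked covariate, 8 within title letter e, 0 within x, 8 without those 3 hearts, and 1 to 7 without 1 heart. Genes lower were 6 in all hearts, 2 within e and 3 within x. The median of the heart or muscle isozymes, -0.1757 in all hearts, was -0.064 with array weights, -0.0623 without the 3 hearts, -0.0485 within e, and -0.21 to -0.0332 without 1 heart. Isozyme pairs with an exact p below 0.05, 5 in all hearts, numbered 1 without wild-type hearts 4 and 5, where 35 assignments allow no p under 0.0286. They numbered 2 to 5 without 1 heart, where fewer assignments than in all hearts also make the test coarser. Without those 2 hearts the contrast of Slc2a4 and Slc2a1 was -0.2961 (-0.2902 in all hearts), that of Pfkm and Pfkp -0.3189 (-0.394) and that of Pfkm and Pfkl -0.1455 (-0.1941). Pairs passing after adjustment were 4 with the RefSeq-annotated Hk1 probe set, which was added after the data were seen, as was leaving out the 3 hearts together. The causes were not tested.

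No paired analysis was possible because the replicate numbers follow accession order. Within a title letter the exact test of a pair cannot go below 0.05. The number of arrays limits the precision, and the table has no detection call.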

Other observations

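Bpgm, which makes 2,3-bisphosphoglycerate and is best known from red blood cells, stood at 9.92 in Ezh2-deficient heart 3 and at 8.26 to 8.39 in the other Ezh2-deficient hearts, against 8.25 to 8.95 in wild-type hearts. Alas2, the first enzyme of heme synthesis in red cell precursors, stood at 11.57 in the same heart and at 9.15 to 9.27 in the other Ezh2-deficient hearts, against 8.10 to 9.75 in wild-type hearts. Both genes were picked after their values were seen.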
